A study of Mus musculus with 4 samples.

Results

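*Dkk2* and 9 related genes, *Dkk1*, *Dkk3*, *Sfrp1*, *Sfrp2*, *Sfrp4*, *Sfrp5*, *Frzb*, *Wif1* and *Kremen1*, were followed in RNA-seq of mouse embryonic fibroblasts (MEFs) with and without Phf2, a PHD finger protein of the JmjC family. All 10 were found by symbol among the 24391 gene symbols of the count table. *Dkk2* was chosen by its measured difference between *Phf2* KO and WT MEFs, and the others by their place in the families of extracellular Wnt antagonists, so their differences between the genotypes are given here as a description, and where a count of calls is given for them nothing is read from it. Primary MEFs came from E13.5 embryos and were arrested in quiescence. All 4 libraries carried the labels Phf2 flox/flox and ERCre/+, meaning floxed *Phf2* alleles and, from the Rosa26 locus, a CreERT2 recombinase that is activated by 4-hydroxytamoxifen (4-OHT). The 2 *Phf2* KO libraries were labelled with tamoxifen (0.5 µM 4-OHT for 7 days in the protocol), and the 2 WT libraries were not. One protocol text is given for all samples, so the medium and vehicle of the WT cells are not known. Loss of Phf2, Cre activity and 4-OHT therefore cannot be told apart. The labels number the libraries of each genotype 1 and 2 without naming the embryo or culture, and p-values measure the spread between these libraries.

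Wnt proteins are secreted ligands that bind a Frizzled receptor together with the co-receptor Lrp5 or Lrp6, which stabilizes β-catenin and activates genes bound by TCF/LEF factors. Dkk1 and Dkk2 bind Lrp5 and Lrp6, and Kremen1 is a membrane receptor that binds these Dickkopf proteins and helps to remove Lrp6 from the cell surface. Secreted Frizzled-related proteins (Sfrp1, Sfrp2, Sfrp4, Sfrp5 and Frzb) carry a domain like the Wnt-binding domain of Frizzled receptors, and Wif1 binds Wnt proteins directly. Fibroblasts and other mesenchymal cells are known sources of several of these antagonists.

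The libraries held between 21094743 and 26094268 counts. The limit of detection was set at 3 counts, which came to 0.115 to 0.142 CPM (counts scaled to library size) and covers counting error only. *Phf2* itself had 3244 and 3680 counts in the WT libraries, against 1454 and 2158 in the *Phf2* KO libraries (each time replicate 1 first), and these counts cover the whole gene rather than the deleted part. Fibroblast markers were abundant in every library, and none of the 9 was near the limit of detection. Of 6 endothelial markers, *Tie1* and *Emcn* had at most 3 counts in each library. *Pecam1* (4 and 2 counts in WT, 4 and 5 in *Phf2* KO) and *Cdh5* (4 and 0, 6 and 6) did not pass the filter on low counts. *Kdr* (441 and 232 counts in WT, 258 and 135 in *Phf2* KO) and *Tek* (79 and 71, 67 and 76) were detected. Of 6 epithelial markers, *Krt5* and *Krt14* had at most 3 counts, and *Krt18*, with 5 to 15, was the one that passed the filter on low counts. Libraries of the same number resembled each other across the genotypes: *Xist* had 10042 (WT) and 8336 (*Phf2* KO) counts in replicate 1 against 3 and 12 in replicate 2, and *Ddx3y*, on the Y chromosome, had 6 and 10 against 1271 and 1295. The libraries numbered 1 and 2 thus came from cells of different sex. The summed level of 14 macrophage markers was 3825 and 4284 CPM in WT and *Phf2* KO replicate 1 and 833 and 1296 CPM in replicate 2, and each of the 14 was higher in replicate 1 in both genotypes. Members are therefore given within each replicate number as well as over the groups.

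In quiescent MEFs the antagonist transcripts were dominated by *Sfrp2* and *Sfrp1*, and *Dkk2* was the one of the 7 well-counted genes that differed most between the genotypes. To compare genes with each other, normalized counts were divided by exonic length (RPKM, with lengths from an mm9 annotation). In WT MEFs the level was 223 ± 8.26 (SD, n = 2) RPKM for *Sfrp2* and 209 ± 25.98 for *Sfrp1*, whose ranges overlapped. *Dkk3* followed with 36.6 ± 3.74, *Kremen1* with 12.5 ± 0.0981, *Dkk2* with 11.4 ± 0.628, *Sfrp4* with 5.56 ± 0.374 and *Frzb* with 1.46 ± 0.160 RPKM, and the ranges of neighbours in this part of the order did not overlap. *Sfrp5*, *Dkk1* and *Wif1* were each below 0.1 RPKM in WT MEFs. Together, *Sfrp1* and *Sfrp2* made up 86.7% and 86.3% of the summed RPKM of the 10 genes in the WT libraries and 89.6% and 89.0% in the *Phf2* KO libraries.

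In *Phf2* KO MEFs the order of the 7 well-counted genes was the same except that *Dkk2*, at 1.77 ± 0.0796 (SD, n = 2) RPKM, stood below *Sfrp4*, at 5.80 ± 0.125. *Dkk2* made up 2.26% and 2.30% of the summed RPKM of the 10 genes in the WT libraries, against 0.326% and 0.375% in the *Phf2* KO libraries. Of the summed RPKM of *Dkk2* and *Dkk3*, *Dkk2* held 24.4% and 23.2% in the WT libraries, against 4.86% and 5.17% in the *Phf2* KO libraries.

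**Figure D1:**
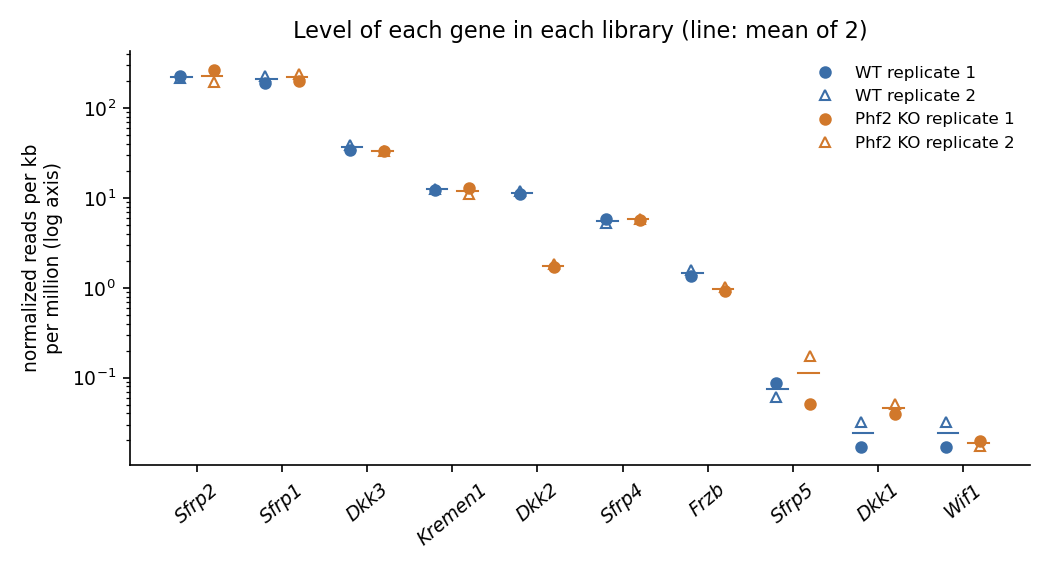
Level of each of the 10 genes in RPKM (log axis) in WT (blue) and *Phf2* KO (orange) libraries, with circles for replicate 1, triangles for replicate 2 and a line at the mean of the 2 libraries. *Dkk2* lies near 11.4 in WT and 1.77 in *Phf2* KO MEFs, while *Sfrp5*, *Dkk1* and *Wif1* lie near the limit of detection.

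*Dkk2* lies on chromosome 3 of mm9 (131748256 to 131843257, forward strand), has 4 exons and overlaps no other annotated gene. It is shown with its promoter because its difference was the largest of the 7. The 250 bases before the RefSeq start (GRCm38.p6 table) match the forward strand of mm9 chromosome 3 once, at chr3:131748006-131748255, ending 1 base before the annotated start. No other chromosome and not the reverse strand was searched. Capitals mark TATAAA, the core of a TATA box, beginning 32 bases before the start, and CTTTGT, a form of the TCF/LEF core, beginning 80 bases before it.
Dkk2 promoter: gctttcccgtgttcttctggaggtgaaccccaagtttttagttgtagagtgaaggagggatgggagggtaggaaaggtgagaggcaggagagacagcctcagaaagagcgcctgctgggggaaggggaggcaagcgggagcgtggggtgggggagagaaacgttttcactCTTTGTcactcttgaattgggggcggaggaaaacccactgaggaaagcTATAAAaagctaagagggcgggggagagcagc
The other TCF/LEF form searched, CTTTGA, was not among these letters. On either strand of the same 250 bases, TATAAA occurred in 12.97%, CTTTGT in 16.5% and CTTTGA in 14.05% of 27025 promoters. Promoters of *Dkk1*, *Frzb*, *Sfrp2*, *Sfrp5* and *Wif1* were also in the table. Of these, TATAAA was present for *Dkk1* and *Wif1*, CTTTGT for *Dkk1*, and CTTTGA for *Dkk1* and *Frzb*. *Dkk3*, *Sfrp1*, *Sfrp4* and *Kremen1* had no entry.

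Among the Dickkopf genes, *Dkk2* was lower in both *Phf2* KO libraries than in both WT libraries. The WT libraries held 977 and 1137 counts of it, or 40.5 and 43.8 normalized CPM, against 131 and 162 counts, or 6.32 and 6.74 CPM, in the *Phf2* KO libraries. The groups lay far apart and replicates of a genotype close together. *Phf2* KO MEFs held 15.5% of the WT level, a log2 fold change of -2.69 (standard error 0.11). Within replicate 1 the *Phf2* KO level was 15.6% of WT (95% exact binomial interval of the counts, 12.9 to 18.7) and within replicate 2 it was 15.4% (12.96 to 18.1). The intervals of the replicate numbers overlapped almost entirely. The summed level of the 9 fibroblast markers was 61533.5 and 68825.5 CPM in WT and 58640.1 and 57159.9 CPM in *Phf2* KO MEFs. Both *Phf2* KO libraries were below both WT libraries for 4 of the 9 (*Col1a1*, *Col3a1*, *Dcn* and *Lum*), beside 18.0% of all genes, and above them for 0, beside 15.5%. Of the 4, *Lum* had the lowest log2 fold change, at -0.75 (standard error 0.22). The part of these markers in the difference of *Dkk2* was not tested, and in bulk RNA fewer cells of a type and less RNA per cell cannot be told apart.

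*Dkk3* (chromosome 7, 119259533 to 119302571, reverse strand) encodes a Dickkopf-related protein that differs from the others in not being a classical Lrp6 antagonist. Its level was 114 and 132 CPM in WT and 112 and 112 CPM in *Phf2* KO MEFs. The *Phf2* KO libraries agreed closely, and WT replicate 1 was only just above them. The log2 fold change was -0.13 (standard error 0.10), and without WT replicate 2 it was -0.04. *Dkk1* (chromosome 19, 30620353 to 30624155, reverse strand), the best-known antagonist of Lrp6, had 1 and 2 counts in the WT libraries against 2 and 3 in the *Phf2* KO libraries. These counts are at or under the limit of detection, so no difference of *Dkk1* was detectable at this depth. *Kremen1* (chromosome 11, 5091555 to 5161561, reverse strand), the receptor for Dickkopf proteins, was at 96.5 and 97.5 CPM in WT and 99.4 and 85.8 CPM in *Phf2* KO MEFs. The *Phf2* KO libraries lay on either side of WT, and the log2 fold change was -0.07 (standard error 0.10).

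Among the Frizzled-related genes, *Frzb* was lower in both *Phf2* KO libraries, and the abundant *Sfrp1* and *Sfrp2* overlapped between the genotypes. *Frzb* (chromosome 2, 80252127 to 80287782, reverse strand), an antagonist first known from cartilage, had 105 and 132 counts in the WT libraries against 62 and 80 in the *Phf2* KO libraries. At 4.35 and 5.08 CPM in WT and 2.99 and 3.33 CPM in *Phf2* KO MEFs, the groups did not overlap. The *Phf2* KO level was 66.9% of WT, a log2 fold change of -0.58 (standard error 0.20). Within replicate 1 it was 68.7% (95% exact binomial interval, 49.4 to 94.9) and within replicate 2 it was 65.4% (48.9 to 87.0). With so few counts the size of this difference is known only roughly. Of 6 chondrocyte markers, 1, *Sox9*, was lower in both *Phf2* KO libraries than in both WT libraries, beside 18.0% of all genes tested. The summed level of the 6 was 12.6 and 39.3 CPM in WT and 12.5 and 41.1 CPM in *Phf2* KO replicates 1 and 2. Their part in the difference of *Frzb* was not tested.

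*Sfrp1* (chromosome 8, 24521974 to 24560104, forward strand) was at 833 and 994 CPM in WT and 880 and 1045 CPM in *Phf2* KO MEFs. Both genotypes had their higher value in replicate 2, and the log2 fold change between them was 0.08 (standard error 0.15). The *Phf2* KO level was 105.6% of WT within replicate 1 (95% exact binomial interval, 103.5 to 107.8) and 105.2% within replicate 2 (103.3 to 107.0). *Sfrp2* (chromosome 3, 83570243 to 83578238, forward strand) was at 493 and 468 CPM in WT and 579 and 416 CPM in *Phf2* KO MEFs. The WT values lay between those of the *Phf2* KO libraries, and the log2 fold change was 0.05 (standard error 0.18). The *Phf2* KO level of *Sfrp2* was 117.5% of WT within replicate 1 (95% exact binomial interval, 114.5 to 120.5) and 88.9% within replicate 2 (86.6 to 91.3). *Gm16790*, on the opposite strand, shares exon bases with *Sfrp2* in the annotation and had no row of its own in the count table.

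*Sfrp4* (chromosome 13, 19714973 to 19724863, forward strand) was at 23.6 and 21.5 CPM in WT and 23.1 and 23.8 CPM in *Phf2* KO MEFs. These values overlapped, and the log2 fold change was 0.06 (standard error 0.11). *Sfrp5* (chromosome 19, 42272461 to 42276742, reverse strand) had 4 and 3 counts in the WT libraries against 2 and 8 in the *Phf2* KO libraries. *Wif1* (chromosome 10, 120471016 to 120537706, forward strand) had 1 and 2 counts in the WT libraries against 1 and 1 in the *Phf2* KO libraries. Both genes were near the limit of detection in both genotypes.

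**Figure D2:**
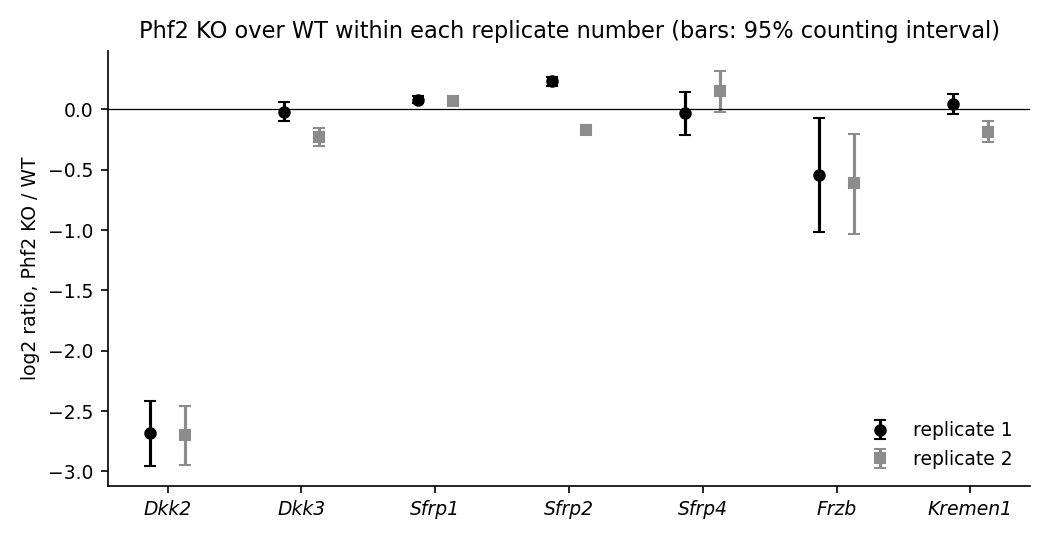
Log2 ratio of *Phf2* KO to WT within replicate 1 (black circles) and replicate 2 (grey squares) for the 7 genes with enough counts, with bars for the 95% counting interval. *Dkk2* lies at -2.68 and -2.70, *Frzb* at -0.54 and -0.61, and *Sfrp2* at 0.23 and -0.17.

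Of the 10 genes, 7 passed the filter on low counts (filterByExpr of edgeR) and *Dkk1*, *Sfrp5* and *Wif1* did not. Genes were called at a Benjamini-Hochberg adjusted p-value under 0.1 by edgeR's quasi-likelihood test. Of the 7, 1, *Dkk2*, was called, beside 0.00732% of all 13668 genes tested, a share made up of *Dkk2* alone. With any of the 4 libraries left out, or with limma-voom, none of the 10 genes was called. The log2 fold change of *Dkk2* stayed between -2.74 and -2.65 with each library left out in turn. In a fit blocked by replicate number, which leaves 1 residual degree of freedom, *Dkk2* and *Frzb* were called lower and 0 members higher, beside 5.20% and 5.77% of all genes. Both *Phf2* KO libraries were below both WT libraries for 3 of the 7 genes (*Dkk2*, *Dkk3* and *Frzb*), beside 18.0% of all genes, and above them for 0, beside 15.5%. The genes were put together with this contrast known, and nothing is read from these counts.

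The difference between libraries numbered 1 and 2 played no part in the choice of genes and was tested with genotype in the fit. The labels do not say whether libraries of a number share an embryo or culture. If they do, the p-values of this test do not measure the spread between embryos or cultures. *Sfrp1* was higher and *Sfrp2* lower in replicate 2 than in replicate 1, and the other 5 genes tested did not pass. For *Sfrp1* the log2 difference (replicate 2 minus replicate 1) was 0.25 in WT and 0.25 in *Phf2* KO MEFs, and 0.25 (standard error 0.10) in the fit (adjusted p = 0.0506, edgeR's quasi-likelihood test, Benjamini-Hochberg over 13668 genes). For *Sfrp2* it was -0.08 in WT and -0.48 in *Phf2* KO MEFs, and -0.28 (standard error 0.09) in the fit (adjusted p = 0.0152 from the same edgeR test). The direction was shared by the genotypes, and the difference of *Sfrp2* was larger between the *Phf2* KO libraries. The adjusted p of the other 5 genes ran from 0.425 to 0.823 in this edgeR test. *Dkk2* differed by 0.11 (standard error 0.11) between the numbers, against -2.69 between the genotypes. The 2 calls among 7 genes stand beside 26.2% of all genes called between the numbers, and nothing particular to these genes is read from them. DESeq2 with both terms called *Sfrp1* but not *Sfrp2*. The macrophage markers (3825 and 4284 against 833 and 1296 CPM) moved with the number too in their summed level. So did the summed chondrocyte markers (12.6 and 12.5 against 39.3 and 41.1 CPM), mainly through *Col2a1* (1.16 and 3.62 against 20.9 and 26.8 CPM). *Comp* rose from 3.19 and 2.27 to 8.94 and 7.53 CPM. *Sox9*, at 7.67 and 6.03 against 8.71 and 5.99 CPM, did not move alike in the genotypes. The remaining chondrocyte markers did not pass the filter on low counts. The part of either list in the differences of *Sfrp1* and *Sfrp2* was not tested.

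**Figure D3:**
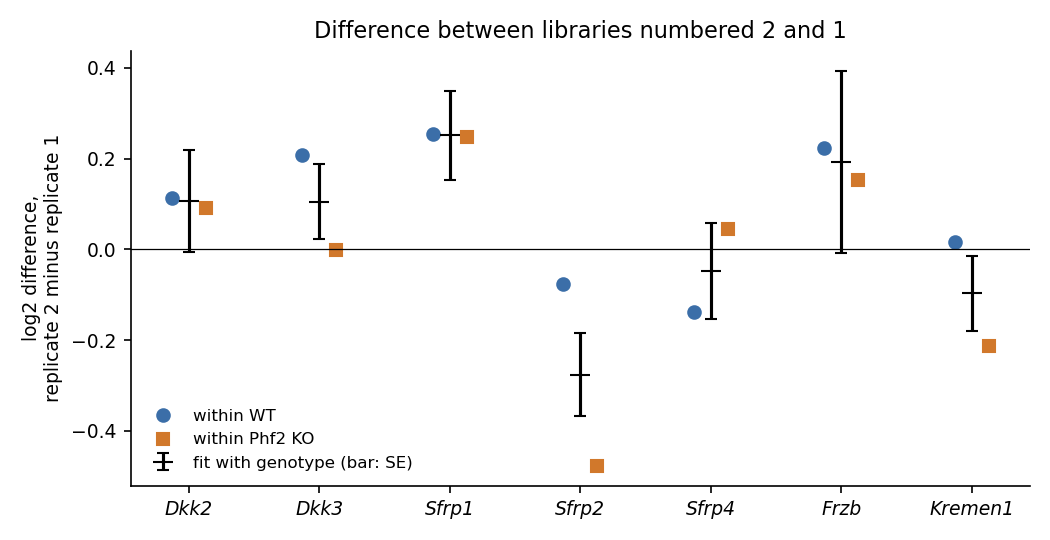
Log2 difference between replicate 2 and replicate 1 within WT (blue circles) and within *Phf2* KO (orange squares) for the 7 genes tested, with the value fitted with genotype in black (bar, standard error). *Sfrp1* lies near 0.25 in both genotypes, and *Sfrp2* at -0.08 in WT and -0.48 in *Phf2* KO MEFs.

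In the fit without the replicate block, no gene of a list of 86 other Wnt pathway genes was called between the genotypes. *Phf2* itself, at a log2 fold change of -0.79 (standard error 0.14), was not called there either (adjusted p = 0.999, edgeR's quasi-likelihood test). A gene not called in that fit is therefore not shown to be unchanged. The lowest log2 fold changes in the list were those of *Lgr6* and *Lgr5*. The list covered other inhibitors, ligands, receptors, R-spondins and their Lgr receptors, secretion, transducers and targets, and 63 of the 86 had enough counts. By edgeR's quasi-likelihood test 0 were called (0.00732% of all genes), and at an unadjusted p-value under 0.05 there were 0 higher and 6 lower, beside 1.54% and 2.67% of all genes. The median log2 fold change was -0.04, beside 0.01 over all genes tested. Both *Phf2* KO libraries were below WT for 14 of the 63 and above WT for 10, beside 18.0% and 15.5% of all genes. With the replicate block 13 were called lower and 4 higher, or 20.6% and 6.35% of the 63, beside 5.20% and 5.77% of all genes. Log2 fold changes and standard errors of single pathway genes, here and below, come from the fit without the block.

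R-spondins strengthen Wnt signals. Of these and their Lgr receptors, 4 of 6 were called lower with the replicate block, beside 5.20% of all genes. *Lgr6* had 198 and 143 counts in the WT libraries against 28 and 10 in the *Phf2* KO libraries, a log2 fold change of -2.97 (standard error 0.58). *Lgr5*, a receptor that also marks stem cells in several tissues, had 2614 and 1472 counts in the WT libraries against 962 and 588 in the *Phf2* KO libraries, a log2 fold change of -1.22 (standard error 0.44). In both genes the groups did not overlap, and for *Lgr5* the ratio was alike within the replicate numbers, at -1.22 and -1.21 log2 units. *Lgr4* (-0.37, standard error 0.11) and *Rspo3* (-0.37, standard error 0.24) had smaller differences, and *Rspo3* overlapped between the genotypes. Each of these 4 had an adjusted p = 0.999 in edgeR's quasi-likelihood test without the block.

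Among 7 other inhibitors tested, 2 were called lower and 1 higher with the block, beside 5.20% and 5.77% of all genes. *Apcdd1*, a membrane inhibitor of Wnt signalling, had 427 and 587 counts in the WT libraries against 241 and 299 in the *Phf2* KO libraries (log2 fold change -0.74, standard error 0.17). *Trabd2b*, which encodes a metalloprotease that inactivates Wnt proteins, had 628 and 913 counts in the WT libraries against 237 and 555 in the *Phf2* KO libraries (-0.82, standard error 0.37). *Tpbg*, a membrane glycoprotein that inhibits Wnt/β-catenin signalling, had a log2 fold change of 0.29 (standard error 0.15). Both *Phf2* KO libraries were below both WT libraries for 2 of the 7 (*Apcdd1* and *Trabd2b*), beside 18.0% of all genes. They were above for 2 (*Tpbg* and *Znrf3*), beside 15.5%.

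Of 10 ligands tested, *Wnt2* and *Wnt11* were called lower and *Wnt4* and *Wnt16* higher with the block. Calls in this paragraph stand beside 5.20% of all genes called lower and 5.77% called higher with the block. In the fit without the block *Wnt2* was at -0.84 (standard error 0.29) and *Wnt11* at -0.36 (standard error 0.19). There *Wnt4* was at 0.48 (standard error 0.20) and *Wnt16* at 0.21 (standard error 0.14). Of 14 receptors and co-receptors, *Lrp6*, to which Dkk1 and Dkk2 bind, had a log2 fold change of -0.29 (standard error 0.08), and was called lower with the block together with *Fzd4* (-0.24, standard error 0.14) and *Ror2* (-0.24, standard error 0.15). *Ror2* overlapped between the genotypes, with log2 ratios of 0.01 within replicate 1 and -0.51 within replicate 2. *Lrp5*, the other Dickkopf-binding co-receptor, which was named after its values were seen, was at -0.03 (standard error 0.10) and was not called. Differences in this group were small, from -0.29 to 0.19. Among 17 transducers only *Csnk1a1*, a kinase of the β-catenin destruction complex, was called with the block (-0.25, standard error 0.11), and of 2 secretion genes, *Porcn* (0.00, standard error 0.16) and *Wls* (0.07, standard error 0.08), neither was. Of 7 targets tested, *Myc* (-0.38, standard error 0.16) was called lower and *Nkd2* (0.35, standard error 0.13) higher. *Axin2*, a widely used readout of Wnt/β-catenin signalling, was likewise named after its values were seen. It had 76 and 108 counts in the WT libraries against 50 and 61 in the *Phf2* KO libraries (-0.56, standard error 0.24). Both *Phf2* KO libraries were below both WT libraries, as for 18.0% of all genes. *Axin2* was not called, but lay just over the threshold with the block (adjusted p = 0.101, edgeR's quasi-likelihood test). Each gene named in this paragraph had an adjusted p = 0.999 in edgeR's quasi-likelihood test without the block.

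**Figure D4:**
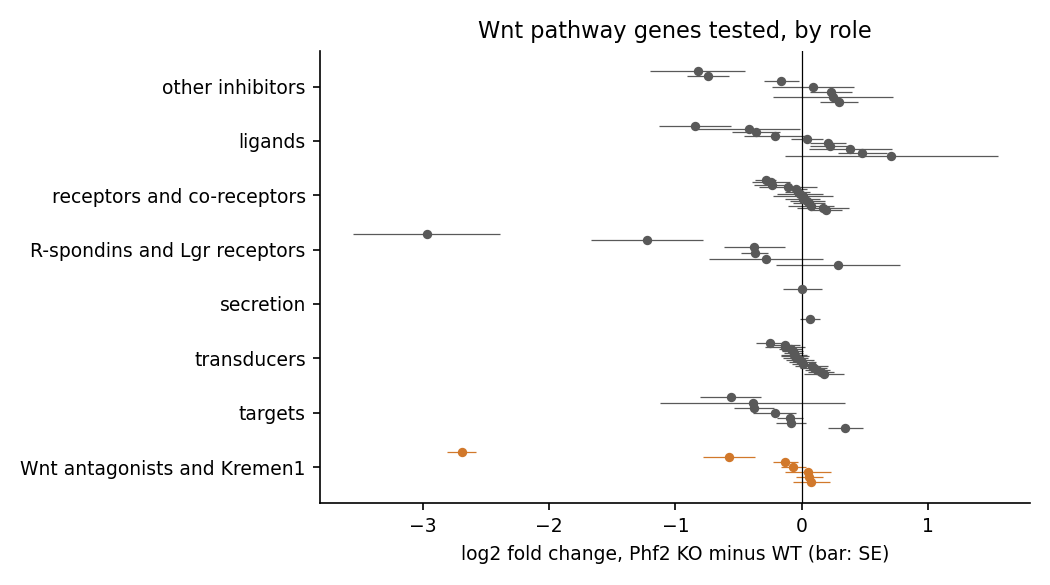
Log2 fold change between *Phf2* KO and WT MEFs of the 63 Wnt pathway genes tested, by role (grey), and of the 7 tested antagonist genes including *Kremen1* (orange), with bars for the standard error. *Lgr6* at -2.97 and *Dkk2* at -2.69 lie far to the left, and *Dkk2* has the shorter bar (0.11 against 0.58).

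The counted genes around *Dkk2* on chromosome 3 had log2 fold changes between -0.04 and 0.19. The nearest counted gene on the side of lower coordinates, *Papss1*, ended 441622 bp away and was at -0.04 (standard error 0.07), with adjusted p = 0.999 by edgeR's quasi-likelihood test. *Sgms2*, beyond it at 700398 bp, was at 0.19 (standard error 0.18). On the other side *Gm5549* had 0 counts in all libraries, and *Aimp1*, at 480205 bp, was at -0.02 (standard error 0.09). *Sgms2* and *Aimp1* had an adjusted p = 0.999 in the same edgeR test, and none of the 3 was called with the replicate block. *Sfrp2* lies on chromosome 3 as well, outside these neighbours, with the values given above.

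The 5 genes whose pattern over the 4 libraries was most like that of *Dkk2*, by Euclidean distance of centred log2(CPM + 0.5), were *Slc14a1* (distance 0.58), *Slitrk1* (0.66), *Sybu* (0.79), *Pgr* (0.83) and *Lgr6* (0.91), where the pattern of *Dkk2* itself had a size of 2.60. All 5 were lower in both *Phf2* KO libraries than in both WT libraries, which this choice favours. They were less abundant than *Dkk2*: *Slitrk1* had 56 and 65 counts in the WT libraries against 6 and 5 in the *Phf2* KO libraries, and *Pgr*, the progesterone receptor gene, 133 and 154 against 24 and 7. *Slc14a1*, a urea transporter gene, had 60 and 54 counts in the WT libraries against 4 and 0 in the *Phf2* KO libraries. Within the replicate numbers, *Pgr* had log2 ratios of -2.25 and -4.35 and *Lgr6* of -2.60 and -3.73, a wider spread than the -2.68 and -2.70 of *Dkk2*. The 4 libraries share the genotype difference that put *Dkk2* forward, so this likeness is a description only.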

How the data were processed

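RNA-seq of 2 WT and 2 *Phf2* KO libraries of MEFs was analysed. Per the labels and methods, the authors trimmed single reads of 50 nt with Trim Galore, removed rRNA with Bowtie2, used STAR (reverse stranded) for alignment to mm9, and counted with featureCounts. They deposited whole read counts per gene symbol, without normalization. Versions and the gene annotation were not given in the sources used here. The authors' table of their own DESeq2 comparison was not used.

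In R 4.3.3, edgeR 4.0.16 was run on all genes that passed filterByExpr (13668), with TMM, glmQLFit and glmQLFTest, a Benjamini-Hochberg adjusted p threshold of 0.1, and standard errors from the log2 fold change over the square root of F. Genotype was the only term. The difference between replicate numbers was tested with genotype in the fit. DESeq2 1.42.0 and limma 3.58.1 were alternatives, as were RLE or library size alone for TMM, other filters, edgeR's likelihood ratio test, a block for the replicate number, and fits without 1 of the libraries. The fits were tested on simulated counts. RPKM used exonic lengths of the GENCODE annotation of mm9 (NCBIM37), and figures Python 3.11.15 with Matplotlib 3.10.9. Depth (21094743 to 26094268 counts) limits genes near 3 counts.

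The members, lists and the rule for named genes were chosen with earlier results of these data known. Named were the 10 members, *Phf2*, markers that moved with a result, the 5 genes most like *Dkk2*, its 2 nearest counted genes on each side, and Wnt pathway genes called with or without the block, or otherwise the 3 with the lowest p of their role. Other lists of markers (neural, osteoblast) were summed and not used further. Of the muscle markers, *Des* had log2 ratios of *Phf2* KO to WT of -0.73 within replicate 1 and -0.74 within replicate 2. Its part in the differences of the members was not tested.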

Additional observations from a re-analysis of the deposited data

Results flagged for a closer look

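3 of the 7 genes tested had a *Phf2* KO to WT ratio that went up within one replicate number and down within the other, where the libraries numbered 1 and 2 differ in *Xist* and in Y-linked counts. With 1 library per genotype in each number, the difference between the numbers was not tested. *Sfrp2* had log2 ratios of 0.23 in replicate 1 and -0.17 in replicate 2, and the counting intervals of its ratios (1.15 to 1.20 and 0.866 to 0.913) lay on either side of 1. *Kremen1* had log2 ratios of 0.044 and -0.18, with intervals of 0.971 to 1.09 and 0.830 to 0.933. *Sfrp4* had log2 ratios of -0.030 and 0.15, and both of its intervals (0.865 to 1.11 and 0.986 to 1.25) included 1. The intervals cover counting error and not the spread between cultures.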

How the results depend on the processing

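With the replicate block, 2 members, 17 pathway genes and 1500 of all genes were called between the genotypes, against 1, 0 and 1 without it. Whether the numbers pair the libraries is not stated in the labels. Across 13668 genes, which are not independent, Pearson's r between the replicate differences of the WT and of the *Phf2* KO libraries was 0.809, and the common dispersion was 0.00363 with the block and 0.0451 without it. limma-voom called 0 members and 0 of all genes (2 and 575 at an unadjusted p-value under 0.05). DESeq2 called 1 member, 1 pathway gene and 64 of all genes. The likelihood ratio test of edgeR called 1, 1 and 41. With 1 library left out, 0 members (1 at an unadjusted p-value under 0.05) and 0 of all genes (237 to 755) were called in each of the 4 fits, where the lone library is assumed to vary like the other group. Between the replicate numbers, DESeq2 called 1 member against 2 in the main test. For these the cause was not tested, beyond fewer samples in the fits with a library left out. Other normalizations and filters left the counts of members, pathway genes and all genes at 1, 0 and 1. Of 84 values of the members' log2 fold changes under alternatives, 80 moved by less than the spread between replicates. The sign changed in 6, all with 1 library left out: *Sfrp1* ranged from -0.05 to 0.19, *Sfrp2* from -0.21 to 0.27, *Sfrp4* from -0.02 to 0.14 and *Kremen1* from -0.18 to 0.03, while *Dkk2*, *Dkk3* and *Frzb* stayed below 0 in all 12.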
